A study of Mus musculus with 186 samples.

Results

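Fresh inner cells of mouse blastocysts collected at E4.0 were compared with fresh inner cells collected at E3.75, by single-cell RNA sequencing. The members were chosen by their labelled developmental stage, which gave 14 columns of the expression table at E4.0 and 22 at E3.75. After 2 near-identical E4.0 columns were averaged as 1 cell, 13 E4.0 cells and 22 E3.75 cells entered, 35 of the 168 cells of the series. All embryos were of the CD-1 strain and came from timed natural matings, and neither fresh group was cultured or treated. Outer cells had been lysed by immunosurgery to leave the inner cells, per the labels' protocols. Each stage was collected in 2 experiments (separate dates, several litters each): 15 and 7 cells at E3.75, and 9 and 4 cells at E4.0. The rest of the series consists of fresh E3.25 cells and of embryos cultured with the PI3K inhibitor LY294002 or with its solvent DMSO. Those groups entered only the filter of tested genes, the shared estimate of the spread, quantile normalization and the comparison of columns, apart from E3.25 where it is named.

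The inner cells of a blastocyst take 1 of 2 routes, to the epiblast, from which the fetus arises, or to the primitive endoderm, the epithelium that later lines the yolk sac. FGF4 secreted by epiblast-biased cells acts through FGF receptors and ERK, and cells that take the endoderm route switch on GATA6 first and then a series of later factors, among them GATA4, SOX17, SOX7 and FOXA2. Primitive endoderm cells then make endocytic receptors and the proteins of a basement membrane, while epiblast cells keep pluripotency factors such as NANOG and SOX2.

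Values are TPM (transcript abundance scaled to the same total in every cell), so the sequencing depth of a cell is unknown. Genes detected per cell, at a TPM of at least 1, stood in for it. Their number ranged from 4316 to 7405 in E3.75 cells (median 6304) and from 5739 to 9132 in E4.0 cells (median 7325), so more genes were detected at E4.0. Mitochondrially encoded genes took 1.14% to 32.3% of TPM at E3.75 and 1.20% to 32.5% at E4.0. Trophectoderm genes, which mark the removed outer layer, differed in level. Cdx2 was listed at a TPM of 0 in every E3.75 cell and reached 4.22 in 1 E4.0 cell, and Elf5 and Dlx3 were listed at 0 throughout. Tead4 was above 0 in every cell of both stages, with at most 253 TPM at E3.75 and 75.5 at E4.0, and the keratin gene Krt8 in 22 of 22 E3.75 cells and 11 of 13 E4.0 cells, with at most 349 and 219. The summed TPM of 20 trophectoderm markers ran from 51.1 to 782 (median 177) at E3.75 and from 103 to 1802 (median 270) at E4.0, where the lipid-binding gene Fabp3 alone reached 1682 in 1 cell. That sum follows its highest genes, and single markers went both ways. Tfap2c was above 0 in 18 of 22 E3.75 cells and 7 of 13 E4.0 cells (at most 125 and 9.28 TPM). Lgals3 was above 0 in 13 and 12 (at most 52.65 and 150). The part of gene detection and of these markers in the stage differences was not tested.

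The labels of 2 E4.0 cells are in doubt, and whether any label is wrong cannot be told from these values. Across all cells of the series, 4 pairs of columns correlated between 0.955 and 0.975 over log2 values, while the next pair reached 0.876. In 1 of them both columns were E4.0 cells of the second experiment, and these were averaged. In another, an E4.0 cell of the first experiment was nearly identical to a cell labelled as cultured for 16 hours with DMSO. That E4.0 cell and 1 other of the same experiment correlated better with the 16-hour cells (mean r 0.711 and 0.703) than with the E4.0 cells (0.632 and 0.643). Their mean r with the E3.75 cells, 0.643 and 0.648, was also above that with the E4.0 cells. Each of the other 11 E4.0 cells was closer to E4.0. These 2 doubted cells stayed in, as labelled, and the counts of genes are also given without them. Both were singled out by their expression, so fits without them favour a larger stage difference and are no independent check. Of the named genes past the threshold, 35 of 37 rises and 4 of 8 falls were larger without them.

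The question of this comparison is what changes in inner cells between E3.75 and E4.0, when the 2 lineages part. Of 11579 genes tested with limma on experiment means of log2(TPM + 1), 174 passed an adjusted p of 0.05, which is 1.50% of the genes tested. Of these, 166 genes were higher at E4.0 (1.43%) and 8 were lower (0.0691%). The unadjusted p was under 0.05 for 1089 genes, 948 of them higher at E4.0. The median difference over all genes was 0.27 on the log2 scale, with 66.1% of genes above 0. A fit with the number of genes detected per cell as a covariate put this median at -0.04 and called 132 genes higher and 24 lower, so the balance of directions depends on that scaling. With quantile normalization the median was -0.03, with 120 genes higher and 11 lower. Without the 2 doubted E4.0 cells and the other columns of conflicting label, 205 genes passed, 165 of them among the 174. A fit of the 4 experiments alone has 2 replicates a stage and called 0 genes, with 857 at an unadjusted p under 0.05, so the calls rest on the spread shared with the other groups.

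Most genes that rose had low values at E3.75, which choosing genes by their rise favours. The counts in this paragraph describe the risers and were not set against shares over all tested genes. Of the 166, 107 had no E3.75 cell at a TPM of 10 or more and 28 were listed at a TPM of 0 in all 22 E3.75 cells, which at a limit of 3 cells of 22 allows a share of up to 13.6% (counting error only, over cells of 2 experiments). Their median of stage means went from 0.15 at E3.75 to 1.96 at E4.0 on the log2(TPM + 1) scale, and the median rise was 1.78. At E4.0 a TPM of 10 was reached in 50% or more of the cells by 33 of the genes and in under 25% of the cells by 82. By annotation 149 of the 166 are protein coding. In the 2 doubted E4.0 cells, 133 and 149 of the 166 genes had a TPM under 1, against 31 to 74 in the other 11 E4.0 cells and 127 to 163 in the E3.75 cells. Those 2 cells thus lie in the range of the E3.75 cells for these genes, which were called with them included.

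Of 8 tested transcription factors of the primitive endoderm 4 passed in limma, all higher at E4.0, among them Foxa2, Sox7 and Foxq1. The median difference of the 8 was 1.42 against 0.27 over all genes. Of all tested genes 1.43% passed as higher, the share to set beside this and the later list counts. Foxa2, a forkhead factor of endoderm, was listed at a TPM of 0 in all 15 cells of the first E3.75 experiment and in 6 of the 7 cells of the second, where the highest was 0.14. At E4.0 the lowest, median and highest TPM were 0, 6.19 and 44.8 in the first experiment, and the 4 cells of the second held 5.51, 12.5, 15.9 and 24.0. The groups overlapped only in the 2 doubted cells, which were both at 0. Foxa2 rose by 3.247 ± 0.30 (SE; adjusted p = 1.12e-06), from a mean log2(TPM + 1) of 0.01 ± 0.02 to 3.26 ± 0.75 (SD, n = 2 experiments each, limma). It lies on chromosome 2 at 148042877 to 148046969, minus strand, on GRCm38.

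Sox7, an SRY-box factor that follows SOX17 in this lineage, reached at most a TPM of 1.50 at E3.75. At E4.0 it was 0, 0.21 and 35.2 (lowest, median, highest) in the first experiment, and 0.78, 4.21, 6.59 and 7.72 in the second. It rose by 1.82 ± 0.25 (adjusted p = 0.000258). Foxq1 stayed low, with at most 0.56 at E3.75 and 5.47 at E4.0, and rose by 1.16 ± 0.19 (adjusted p = 0.00186). The calls of Foxa2, Sox7 and Foxq1 held in each of the 4 fits that left out 1 experiment.

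Gata4, Sox17, Gata6 and Hnf4a, factors of the same list, did not pass. Gata4 differed by 1.67 ± 0.64 (SE), with experiment means of 1.68 and 3.60 at E3.75 and 3.68 and 4.94 at E4.0 (adjusted p = 0.348 in limma, and 0.106 without the 2 doubted cells). Cells with a Gata4 TPM of 10 or more made up 5 of 22 at E3.75 (22.7%, exact 95% interval 7.82 to 45.4%) and 8 of 13 at E4.0 (61.5%, 31.6 to 86.1%). Sox17 differed by 0.58 ± 0.64, and by -0.34 when the mean TPM was taken before the log. In the second E3.75 experiment 3 cells held 83.4, 163 and 200 TPM of Sox17. Gata6, the first of the series, differed by 0.29 ± 0.67 and Hnf4a by 0.07 ± 0.49 (adjusted p = 0.964 and 0.987). Gata6 was at a TPM of 10 or more in 11 of 22 E3.75 cells and in 8 of 13 E4.0 cells.

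**Figure D1:**
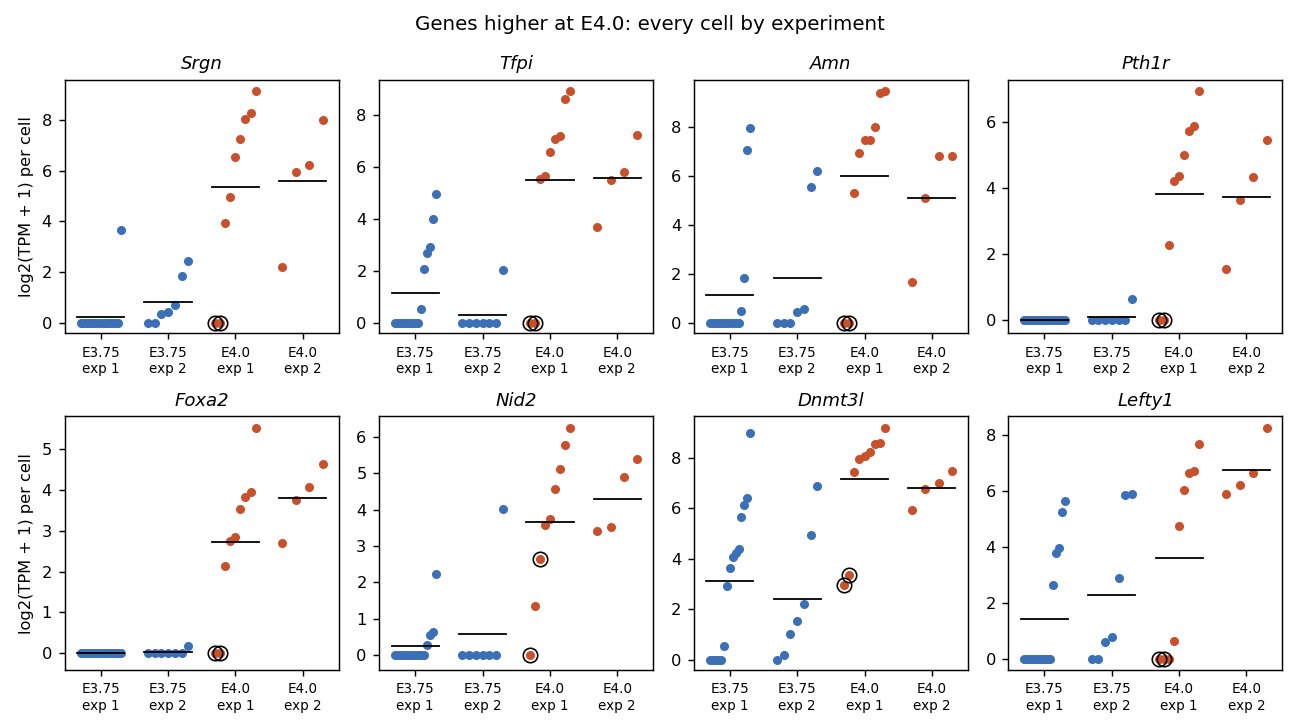
Every cell's log2(TPM + 1) for 8 genes that rose at E4.0 (vertical axis), by stage and experiment (horizontal axis). Points are cells, black bars are experiment means, and rings mark the 2 E4.0 cells closer to 16-hour cultured cells. Foxa2 and Pth1r are near 0 in all E3.75 cells, and the ringed cells lie at 0 for all 8 genes except Nid2 and Dnmt3l.

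Surface, endocytic and secreted genes of the primitive endoderm rose in 5 of 10 tested members, of 18 listed (median difference 1.52 over those tested). A gene could enter the test through its level at E4.0 alone, which favours rises in that share. Srgn encodes the core protein of the proteoglycan serglycin. Its TPM was 0 in 14 of 15 cells and 11.5 in the other of the first E3.75 experiment, and at most 4.43 in the second. In the first E4.0 experiment it was 0, 92.2 and 559 (lowest, median, highest), and in the second 3.61, 60.2, 72.9 and 255. Srgn was at a TPM of 10 or more in 1 of 22 cells at E3.75 and in 10 of 13 at E4.0, and rose by 4.93 ± 0.41 (adjusted p = 3.83e-07).

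Pth1r, the receptor for parathyroid hormone and its related peptide, known for its part in parietal endoderm, was listed at 0 in all 15 cells of the first E3.75 experiment and reached 0.55 in the second. At E4.0 it was 0, 19.8 and 122 in the first experiment and 1.91, 11.4, 19.1 and 43.3 in the second. Again only the 2 doubted cells were at 0. Pth1r rose by 3.74 ± 0.30 (adjusted p = 3.5e-07). Amn, which anchors the endocytic receptor cubilin, was already present in a few E3.75 cells, 4 of 22 at a TPM of 10 or more with a highest value of 247, and in 10 of 13 E4.0 cells. It rose by 4.07 ± 0.69 (adjusted p = 0.00188). Podxl, a sialomucin of apical membranes, and Cited2, a transcriptional co-regulator counted in this list, rose by 1.56 and 1.49 (adjusted p = 0.00147 and 0.00234), each with 0 of 22 E3.75 cells and 3 of 13 E4.0 cells at a TPM of 10. All 5 calls held without any 1 experiment.

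The other tested members of that list did not pass. Dab2, the endocytic adaptor of megalin and cubilin, was under 4 TPM in every E3.75 cell and reached 119.8 at E4.0, with 0 of 22 and 7 of 13 cells at a TPM of 10. Its difference was 2.86 ± 0.75 (adjusted p = 0.0607). Without the 2 doubted cells, a choice that favours a larger rise, it was 3.43 and passed (adjusted p = 0.0436). Cubn, cubilin itself, differed by 1.49, Pdgfra, the PDGF receptor that marks the lineage early, by 0.55, Apoe by 0.52 and Lrp2, which encodes megalin, by 0.26 (adjusted p from 0.491 to 0.955). Cubn was at a TPM of 10 in 2 of 22 E3.75 cells and in 9 of 13 E4.0 cells.

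Basement membrane and collagen assembly genes had 3 of 24 tested members past the threshold, all higher, against 1.43% of all tested genes. Their median difference was 0.83, and 22 of 24 were above 0, against 66.1% of all tested genes. With genes detected as a covariate the list median was 0.75, against -0.04 over all genes. Nid2, which encodes nidogen 2, a linker of laminin and collagen IV networks, reached a TPM of 3.66 in the first and 15.3 in the second E3.75 experiment, with all other cells under 1. At E4.0 it was 0, 12.3 and 75.1 in the first experiment and 9.71, 10.51, 28.6 and 40.8 in the second. Nid2 rose by 3.57 ± 0.32 (adjusted p = 1e-06, limma). Serpinh1, the collagen chaperone, rose by 3.249 ± 0.70 (adjusted p = 0.0154), and Hspg2, the gene of perlecan, by 0.76 ± 0.18 at a low level, at most 4.84 TPM (adjusted p = 0.0356). The laminin chains Lama1, Lamc1 and Lamb1 differed by 2.80, 2.43 and 1.86 and the collagen IV chains Col4a2 and Col4a1 by 1.33 and 0.38, and none of these passed (adjusted p from 0.106 to 0.965). Nid2 stood without any 1 experiment, whereas Serpinh1 was lost in 2 such fits and Hspg2 in 3 (adjusted p up to 0.259 and 0.194).

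Other secreted and signalling genes were among the largest rises. Tfpi, an inhibitor of coagulation, was at most 30.3 TPM in the first and 3.06 in the second E3.75 experiment. At E4.0 it was 0, 93.5 and 476 in the first experiment and 11.8, 44.2, 53.9 and 149 in the second. It rose by 4.81 ± 0.52 (adjusted p = 1.68e-05). Htra1, a secreted serine protease, was listed at 0 in 20 of 22 E3.75 cells, with 0.63 and 35.95 in the other 2, and was at a TPM of 10 or more in 10 of 13 E4.0 cells. The hormone precursor gene Trh was at that level in 2 and 10 cells. Htra1 and Trh rose by 4.64 ± 0.67 and 4.02 ± 0.47 (adjusted p = 0.000365 and 2.95e-05). Ppp1r1a, a regulator of protein phosphatases, rose by 3.88, Rgs19, which speeds GTP hydrolysis by G proteins, by 3.31 and Fam129b by 3.53 (adjusted p = 0.0173, 0.0404 and 0.00958). Eras, an embryonic stem cell Ras that can activate PI3K, rose by 3.42 ± 0.77 (adjusted p = 0.022), with 2 of 22 E3.75 cells and 9 of 13 E4.0 cells at a TPM of 10 or more. Of the 4 fits without 1 experiment, Ppp1r1a and Eras passed in 1 and Fam129b in 2 (adjusted p up to 0.223, 0.256 and 0.142).

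Glrx5, of mitochondrial iron-sulfur cluster assembly, rose by 3.55 and the ubiquitin-conjugating family gene Ube2dnl1 by 3.46 (adjusted p = 0.0406 and 2.95e-05). In 1 cell of the second E3.75 experiment Ube2dnl1 held 1204 TPM, above its highest E4.0 value of 526. With the log taken of each experiment's mean TPM, Ube2dnl1 differed by 1.53 (adjusted p = 0.919 in limma). The long non-coding RNA genes Platr10 and 1700097N02Rik rose by 3.65 and 3.60 (adjusted p = 0.000433 and 0.0037). Gm28438, an unprocessed pseudogene, had the largest rise, 5.17 ± 1.16 (adjusted p = 0.0223), but its first E3.75 experiment reached 1830 TPM and overlapped E4.0, while its second held at most 7.41. In the second E4.0 experiment Gm28438 was at 54.6 and 45.8 TPM in the 2 cells with 1.20% and 3.02% of TPM from mitochondrially encoded genes, and at 2393 and 7398 in those with 31.7% and 32.5%. In the second E3.75 experiment the median of that share was 2.06%, and in the first 16.7%, with Gm28438 listed at 0 in the cell with the highest share (32.3%). The part of that share in the difference was not tested. Gm28438 and Ube2dnl1 may share reads with near-identical copies. Ube2dnl1 differed by 1.74 in cells of sequencing run 1 and by 5.91 in run 2, and Gm28438 by 3.38 and 6.46. Tfpi, Htra1, Trh, Platr10 and Ube2dnl1 passed without any 1 experiment. Gm28438 passed in 1 of those 4 fits, 1700097N02Rik in 2, and Glrx5 and Rgs19 in none (adjusted p up to 0.48, 0.067, 0.26 and 0.321). Glrx5 was also lost without the 2 doubted cells (adjusted p = 0.055), where it differed by 3.36.

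The promoters of these genes were read for 3 short motifs of endoderm factors, as RefSeq windows of 250 bases before to 50 after the annotated start (GRCm38.p6). The motifs were AGATAA for GATA factors, TGTTTAC for forkhead factors and ATTGTT for SOX factors, on both strands. The end of the SOX motif and the start of the forkhead motif share 4 letters, so 1 site can hold both. Of the 166 risers 124 had a window. A GATA motif was in 7.26% of these genes and in 7.45% of all 7729 tested genes with a window, a forkhead motif in 5.65% and 2.99%, and a SOX motif in 9.68% and 6.77%. The matched stretches of Foxa2, Tfpi and Platr10 are shown because these risers passed in each fit without 1 experiment and have a match before a RefSeq start, and that of Aldoc because it holds the forkhead motif. The RefSeq start of Platr10 is the gene's outermost annotated start. Those of Foxa2, Tfpi and Aldoc lie 1505, 2601 and 1230 bases downstream of the outermost start, so these 3 stretches are inside the annotated genes. The motif is in capitals and each stretch is written 5′ to 3′ on the gene's own strand. The Foxa2 stretch is chr2:148045630-148045659 (minus), with the GATA motif starting 183 bases before the start.
Foxa2: ctgttagccttgAGATAAtattaactttgt
The Tfpi stretch is chr2:84474211-84474240 (minus), with the GATA motif starting 54 bases before the start.
Tfpi: agggccgtggctAGATAAtggctagcttcc
The Platr10 stretch is chr3:75655768-75655797 (minus), with a SOX motif starting 54 bases before the start.
Platr10: ctggatcactctATTGTTctgcctctgcca
The Aldoc stretch is chr11:78324039-78324068 (plus), with the forkhead motif starting 148 bases before the start.
Aldoc: aacaggttttcTGTTTACctcaggaagggg
A match describes the letters of the window and was not linked to binding here.

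Epiblast and naive pluripotency genes had 3 of 20 members past the threshold, with a median difference of 0.87 and 14 of 20 above 0 (70%, against 66.1% of all tested genes). Ifitm1, an interferon-induced membrane protein, was listed at 0 in all 22 E3.75 cells and reached 179 in the first and 12.1 in the second E4.0 experiment. It rose by 2.26 ± 0.43 (adjusted p = 0.00625). Morc1, a silencer of transposons, rose by 1.89 ± 0.32 and Enox1 by 1.58 ± 0.33 (adjusted p = 0.00186 and 0.0131). Morc1 passed in each of the 4 fits without 1 experiment, Enox1 in 2 and Ifitm1 in 1 (adjusted p up to 0.196 and 0.0835 for Enox1 and Ifitm1). With genes detected as a covariate the median of this list was 0.26.

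The core factors of the epiblast did not pass. Nanog was at a TPM of 10 or more in 21 of 22 E3.75 cells and 11 of 13 E4.0 cells, and differed by -0.54 ± 1.13. Its experiment means were 5.98 and 7.38 at E3.75 and 5.22 and 7.06 at E4.0, so the experiments overlapped. Sox2 differed by 0.92 ± 0.88, Klf2 by 1.69, Klf4 by 0.61, Esrrb by -0.41 and Pou5f1, which encodes OCT4, by -0.66 (adjusted p from 0.575 to 0.956). Pou5f1 was at a TPM of 10 or more in every cell of both stages.

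Dnmt3l, the catalytically inactive partner of the de novo DNA methyltransferases, rose. It was 0, 11.4 and 503 (lowest, median, highest) in the first E3.75 experiment and 0, 1.93 and 117 in the second. In the first E4.0 experiment it was 6.79, 271 and 583, and in the second 60.9, 108, 126 and 176. The 2 lowest E4.0 cells, at 6.79 and 9.22, were the doubted ones. Dnmt3l rose by 4.21 ± 0.88 (adjusted p = 0.0131), and its call held in none of the 4 fits without 1 experiment (adjusted p up to 0.169). The catalytic partners Dnmt3b and Dnmt3a differed by 2.44 ± 0.80 and 1.94 ± 0.53 and did not pass (adjusted p = 0.203 and 0.0831). Otx2, a factor of the formative state, differed by 1.90 (adjusted p = 0.182), and Utf1 by -0.13. Dnmt3l was the 1 of 5 formative genes tested that passed (median 1.94), and the 1 of 10 in the list of DNA methylation writers, readers and erasers, in which Dnmt1, Uhrf1 and Trim28 differed by 0.01, 0.10 and 0.04 (list median 0.42, and -0.12 with genes detected as a covariate).

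**Figure D2:**
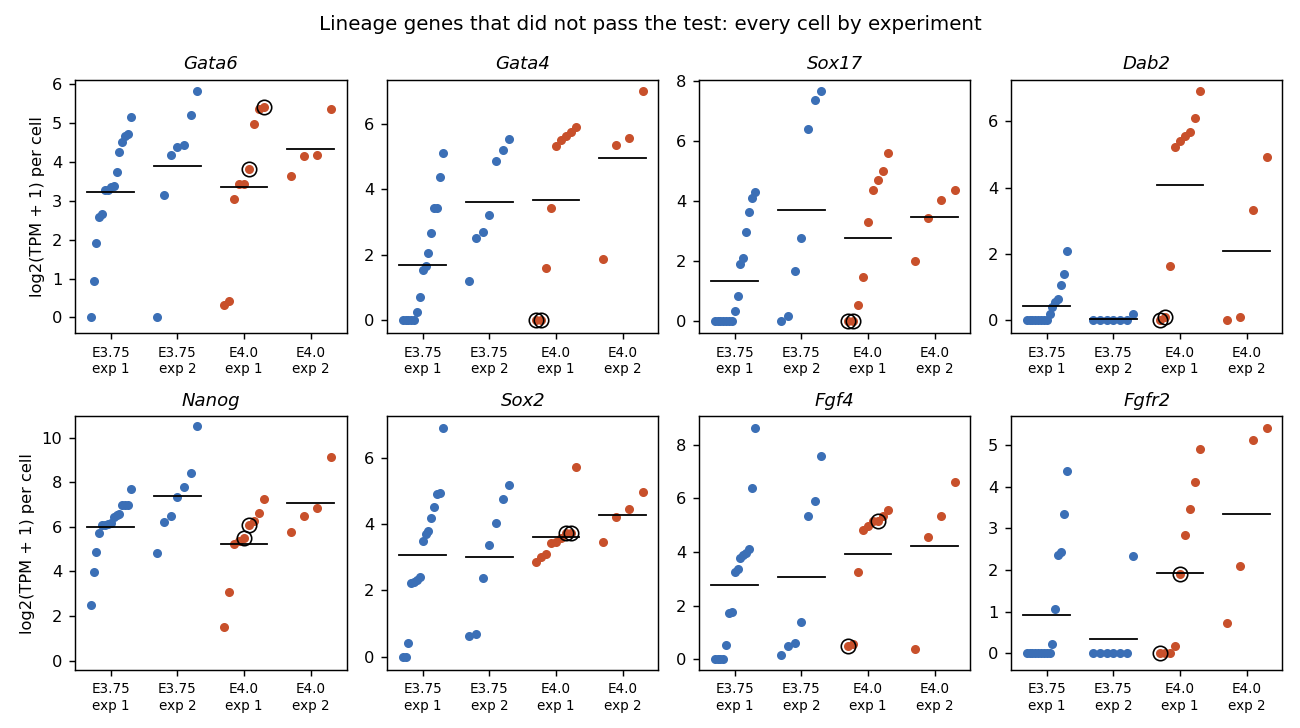
Every cell's log2(TPM + 1) (vertical axis) for 8 lineage genes that did not pass the test, by stage and experiment (horizontal axis), with experiment means as bars and the 2 doubted E4.0 cells ringed. The cells of both stages overlap widely for Nanog and Gata6, and Dab2, under 4 TPM in every E3.75 cell, is spread from 0 to 119.8 TPM at E4.0.

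Genes of the NODAL and BMP pathways, signals of the TGF-beta family, had 3 of 16 members past the threshold (list median 0.48). All 3 encode NODAL or its inhibitors. Lefty1, a secreted NODAL inhibitor, was 0, 0 and 48.5 in the first and 0, 0.70 and 57.6 in the second E3.75 experiment. At E4.0 it was 0, 25.5 and 203 in the first, and 58.0, 73.01, 98.0 and 304 in the second, where every cell was above every E3.75 cell. Lefty1 and its neighbour Lefty2 rose by 3.32 ± 0.66 and 3.20 ± 0.61 (adjusted p = 0.00874 and 0.00614). The ligand gene Nodal, at most 0.25 TPM at E3.75 and 9.62 at E4.0, rose by 0.94 ± 0.23 (adjusted p = 0.0383). The NODAL co-receptor gene Tdgf1 differed by 1.14, the receptor gene Acvr1b by 1.06, the nuclear partner Foxh1 by 1.21, and Bmp4 and its target Id3 by -0.61 and -0.52, none past the threshold. Bmp4 differed most between the E3.75 experiments, with means of 1.52 and 6.57. Nodal was lost in 3 of the 4 fits without 1 experiment, Lefty1 in 2 and Lefty2 in 1 (adjusted p up to 0.324, 0.12 and 0.0735). With quantile normalization the list median was 0.00.

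In the FGF and ERK pathway 1 of 13 members passed (list median 0.52), Spred1, an inhibitor of Ras and ERK signalling, which rose by 1.74 ± 0.42 (adjusted p = 0.0354). The ligand gene Fgf4 differed by 1.16 ± 0.85 and was at a TPM of 10 or more in 9 of 22 E3.75 cells and in 9 of 13 E4.0 cells. The receptor gene Fgfr2 differed by 2.01 ± 0.69 and Fgfr1 by -1.57 ± 0.98, with 1 and 5 cells at that level for Fgfr2 and 17 and 3 for Fgfr1 (of 22 and 13). Neither receptor passed (adjusted p = 0.246 and 0.7). The ERK targets Etv4, Dusp4 and Spry4 differed by 1.16, 0.52 and 0.65. Spred1 was lost in 3 of the 4 fits without 1 experiment (adjusted p up to 0.475) and differed by 0.84 in run 1 against 2.87 in run 2.

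No member of the PI3K, AKT and FOXO list passed, of 21 tested (median -0.02, and -0.40 with quantile normalization). The catalytic subunit gene Pik3ca differed by 0.91, the regulatory subunit gene Pik3r1 by 0.85, Akt1 by -0.61, Mtor by 1.28 and Tsc2 by -1.37. Foxo3 differed by 0.04 ± 0.92.

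Glycolysis genes had 3 of 22 members past the threshold, all higher, against 1.43% of all tested genes. Of the 22, 20 were above 0, against 66.1% of all tested genes. The median difference was 1.40, and 1.04 with genes detected as a covariate. Pgam2, a phosphoglycerate mutase, rose by 3.70 ± 0.89, the aldolase gene Aldoc by 1.35 ± 0.31 and the lactate exporter gene Slc16a3 by 1.45 ± 0.36 (adjusted p = 0.0356, 0.0259 and 0.0436). Ldha differed by 3.41, the glucose transporter gene Slc2a3 by 2.71, Pfkl by 2.51 and Hk2 by 2.46, none of which passed (adjusted p from 0.114 to 0.409), and Gapdh by 0.33. Aldoc, Pgam2 and Slc16a3 were lost in 2, 3 and 3 of the 4 fits without 1 experiment (adjusted p up to 0.33, 0.449 and 0.401).

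Cholesterol synthesis and uptake genes had 1 of 24 past the threshold, Stard4, a sterol carrier gene, which rose by 1.78 ± 0.36 (adjusted p = 0.00905). The list median was 1.05, and 0.25 with genes detected as a covariate. Among genes of endoplasmic reticulum chaperones and the unfolded protein response 0 of 19 passed (median 1.19, and 0.56 with the covariate), with the chaperone gene Hspa5 at 3.45, Herpud1 at 2.65 and Manf at 2.48. Hypoxia targets had 0 of 13 (median 0.47), cell cycle genes 0 of 26 (median 0.75, with Ccne1 at 2.37 and Ccnb1 at 2.28), lysosome and autophagy genes 0 of 23 (median 0.02) and the BCL2 family 0 of 10 (median -0.17). Trophectoderm markers had 0 of 16 (median 0.10, and -0.14 with the covariate), with Lgals3 at 3.14 and Krt18 at -1.34. Visceral endoderm markers had 1 of 5 tested (of 17 listed), the WNT inhibitor gene Dkk1, which rose by 2.77 ± 0.50 (adjusted p = 0.0036 in limma). Without 1 experiment in turn, Dkk1 passed in 3 of 4 fits and Stard4 in 2 (adjusted p up to 0.0673 and 0.0986).

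**Figure D3:**
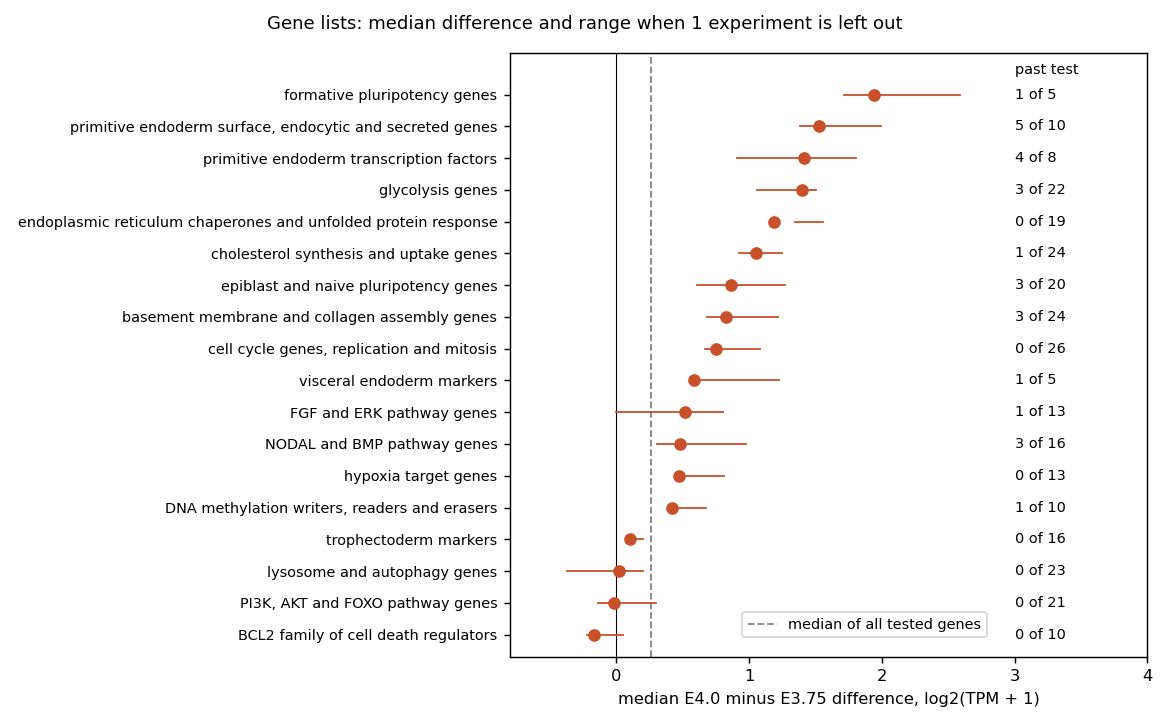
Median E4.0 minus E3.75 difference in log2(TPM + 1) (horizontal axis) for 18 gene lists (vertical axis). Points are medians over tested members, lines span the medians when 1 of the 4 experiments was left out, the dashed line is the median of all tested genes (0.27), and the numbers give members higher past the threshold of those tested. Among tested members, the primitive endoderm lists had the largest shares past the threshold, 5 of 10 (of 18 listed) and 4 of 8.

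The 8 genes that fell differ in kind. Bhmt, which remakes methionine from homocysteine with betaine, was 239, 580 and 1309 (lowest, median, highest) in the first E3.75 experiment and 164, 303 and 532 in the second. At E4.0 it was 0, 11.0 and 834 in the first experiment, and 50.7, 153, 166 and 191 in the second. The 2 high E4.0 cells, at 719 and 834, were the doubted ones, and the next cell of that experiment was at 30.3. Bhmt fell by 3.18 on the log2 scale (SE 0.77; adjusted p = 0.0381), and by 3.94 without these 2 cells (adjusted p = 0.0282).

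Crip2, a LIM domain gene, was at least 49.4 TPM in all E3.75 cells and under 13 in 6 of 9 cells of the first E4.0 experiment. The cells of the second E4.0 experiment held 6.19, 11.1, 148 and 159 TPM of Crip2, the higher values being within the E3.75 range. Plac9b and the processed pseudogene Gm6166 were also above 10 TPM in nearly all E3.75 cells, 20 and 22 of 22. Crip2 fell by 3.36, Plac9b fell by 3.77 and Gm6166 fell by 4.10 (adjusted p = 0.0161, 0.0357 and 0.0134). The 2 doubted cells held the highest values of the first E4.0 experiment for Crip2, 94.25 and 343, and for Gm6166, 58.97 and 316, and 1 of them held the highest for Plac9b, 315. Gm3183 reached 203 TPM at E3.75 and at most 0.02 at E4.0, and fell by 4.10 (adjusted p = 0.0406). Dhrs3, a retinaldehyde reductase gene, Car7, a carbonic anhydrase gene, and the long non-coding RNA gene Gm48847 were at most 0.13 TPM in every E4.0 cell and passed as well. Each was at a TPM of 10 or more in only 4 of 22 E3.75 cells (18.2%). A count of 0 in the E4.0 cells, at a limit of 3 cells of 13, allows a share of up to 23.1% (counting error only). Dhrs3 fell by 1.31, Car7 fell by 1.25 and Gm48847 fell by 1.13 (adjusted p = 0.0236, 0.0475 and 0.027). None of the 8 falls passed in all 4 fits without 1 experiment, and without the 2 doubted cells Car7 was lost (adjusted p = 0.0583). Crip2, Plac9b and Gm6166 differed by -1.70, -2.23 and -2.80 in run 1 and by -5.25, -5.58 and -5.78 in run 2. Plac9b, Gm3183 and Gm6166 may share reads with near-identical copies.

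The sequencing run was a split within every fresh experiment, with 2 to 9 cells of each run. Some cultured experiments, which also entered the fits of a single run, had fewer cells of a run. Cells of run 1 alone gave 16 genes past the threshold and cells of run 2 alone 158, of 174 with both. Taking the log of the mean TPM of an experiment, which weights its highest cells, gave 70 genes. Under that setting 11 of the 45 named calls stood, Srgn, Pth1r, Foxa2, Sox7, Foxq1, Podxl, Nid2, Enox1, Glrx5, Gm3183 and Plac9b. Among the others Tfpi had an adjusted p = 0.106, Amn 0.664 and Lefty1 0.523 in limma. The differences of Amn and Lefty1 were smaller under that setting, and that of Tfpi was larger. Why these calls were lost was not tested. Without the first or the second E3.75 experiment 56 and 69 of the 166 rises still passed, and without the first or the second E4.0 experiment 113 and 100. In all 4 fits 46 rises and none of the 8 falls passed.

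The earlier step was read for the same genes. From E3.25 to E3.75 the 166 genes had a median difference of -0.02, and 146 of them had a mean log2(TPM + 1) under 1 at E3.25 and also 146 at E3.75. The 166 were chosen by a rise from E3.75, where the earlier step ends, which favours a flat or falling earlier step. These counts were not set against shares over all tested genes. In the test of the later step minus the earlier step, 8 of 11579 genes passed (0.0691%), and in all 8 the later step was the more positive. They were Srgn, Tfpi, Pth1r, Foxa2, Nid2, Exoc3l, Flrt3 and Hs3st1. Exoc3l, Flrt3, a membrane protein of the anterior visceral endoderm, and Hs3st1, a heparan sulfate sulfotransferase, stand outside the naming rule and were chosen after their values were seen. Foxa2 went from 0.05 ± 0.04 to 0.01 ± 0.02 and then to 3.26 ± 0.75, and Pth1r from 0.09 ± 0.13 to 0.05 ± 0.06 and then to 3.78 ± 0.06 (SD, n = 2 experiments a stage). Both steps share the E3.75 experiments, so a low E3.75 value enters both. With the first E3.75 experiment left out 3 genes passed, all with the later step the lower, and with the second left out 0 did (487 at an unadjusted p under 0.05). Leaving out the first or the second E4.0 experiment gave 62 and 28 genes, all with the later step the higher.

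**Figure D4:**
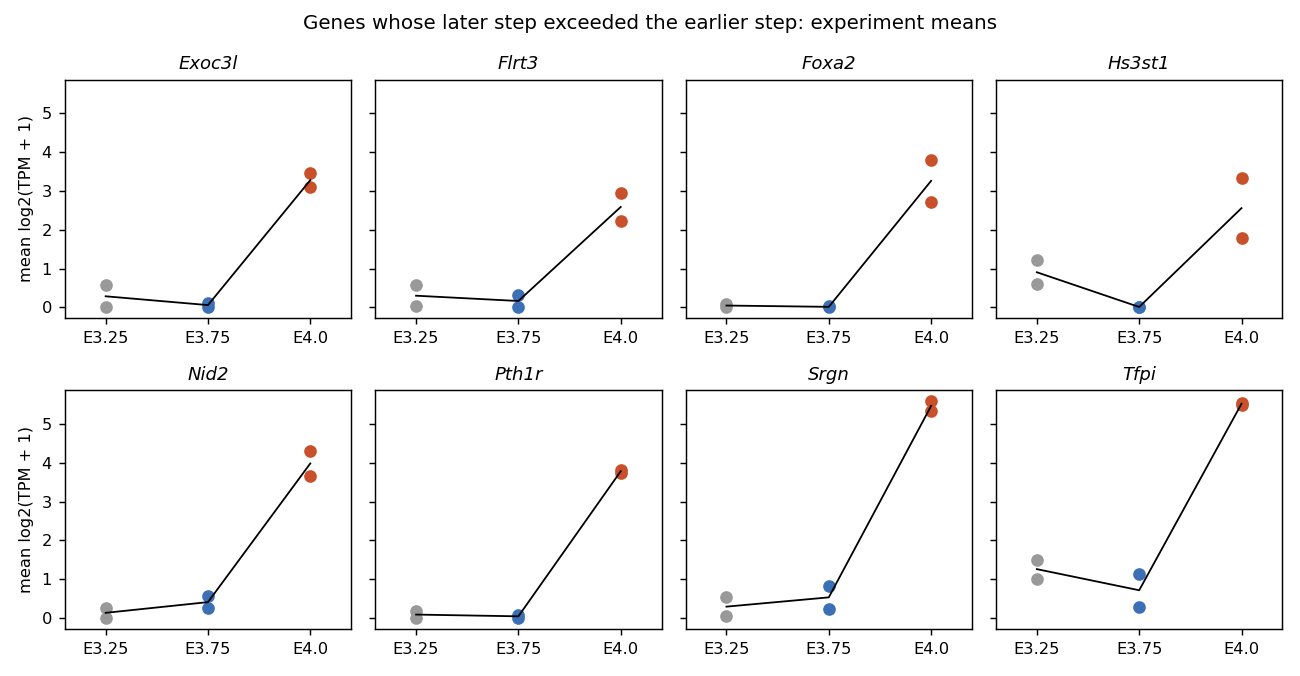
Experiment means of log2(TPM + 1) (vertical axis) at the 3 fresh stages (horizontal axis) for the 8 genes whose later step exceeded the earlier one, with points for experiments and a line through the stage means. The highest E3.25 or E3.75 value is 1.51 (Tfpi) and the lowest E4.0 value 1.78 (Hs3st1).

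Lineage genes were seen together in single cells at both stages. A TPM of 10 or more for both Nanog and Gata6 was found in 11 of 22 E3.75 cells and in 7 of 13 E4.0 cells. Both Nanog and Gata4 reached that level in 5 E3.75 cells and 6 E4.0 cells, and Gata4 without Nanog in 0 and 2. All 8 E4.0 cells with Gata4 at that level also had Srgn, while none of the 5 such E3.75 cells did. Of the 10 E4.0 cells with Srgn, 8 also had Nanog. The mean log2(TPM + 1) of the 8 primitive endoderm factors ran from 0 to 3.0 in E3.75 cells (median 1.23) and from 0.68 to 4.00 in E4.0 cells (median 3.06). For the epiblast list the ranges were 2.33 to 5.01 (median 3.39) and 2.74 to 5.26 (median 3.96). These shares and scores are descriptions with no test. With 2 experiments a stage, an exact permutation test cannot give a two-sided p under 0.33.

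**Figure D5:**
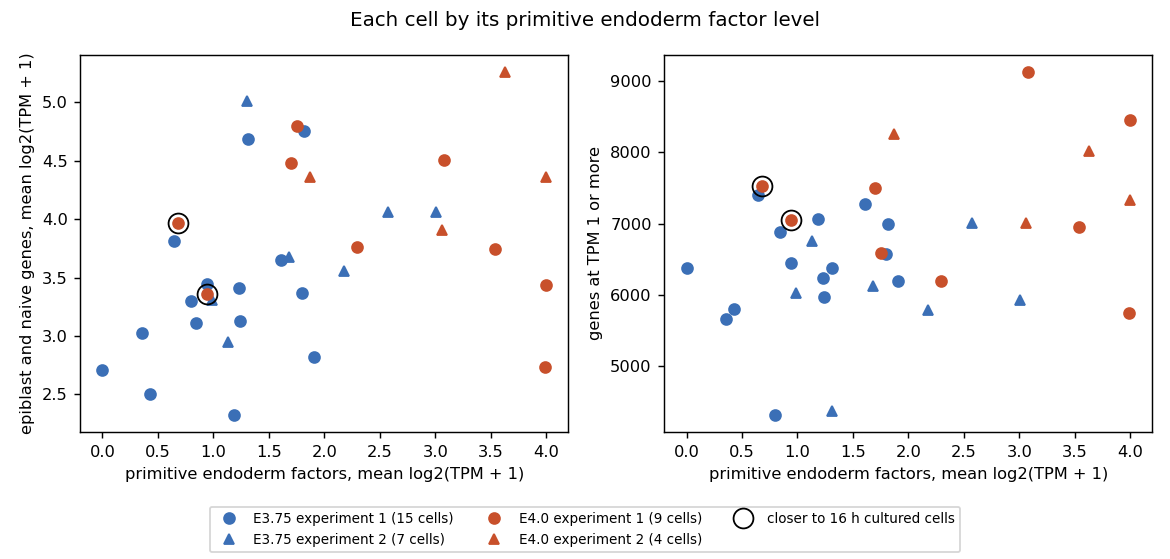
Each point is 1 cell, placed by the mean log2(TPM + 1) of 8 primitive endoderm factors (horizontal axis) and by that of the epiblast and naive genes (left, vertical axis) or by its number of genes at a TPM of 1 or more (right, vertical axis). E4.0 cells reach 4.00 on the endoderm axis and E3.75 cells 3.0, and the 2 ringed E4.0 cells lie at 0.68 and 0.94 on that axis, within the E3.75 range, with 7521 and 7053 genes detected, the first above the highest E3.75 cell (7405).

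Within the 13 E4.0 cells the risers did not form 1 block. Against the mean log2 level of Gata4, Sox17 and Sox7 per cell, 50 of 165 risers (Sox7 left out) had a Pearson r of 0.5 or more and the median r was 0.32. Without the 2 doubted cells, which are low in both, 29 of the 165 did so over 11 cells and the median r was 0.10. Rhpn1, Hs3st1, Dkk1, Srgn, Serpinh1, Pth1r and Lefty1 had r of 0.94, 0.89, 0.84, 0.83, 0.71, 0.68 and 0.63 over the 11 cells. Foxa2, Nid2, Tfpi and Dnmt3l had r of 0.53, 0.24, 0.66 and 0.62 over 13 cells and of -0.15, -0.40, 0.16 and -0.01 over 11. An r of -0.5 or less was found for 1 of the 165 over 13 cells and for 8 over 11, among them Myof, Plekha2 and Enox1 with -0.83, -0.79 and -0.66. These correlations are a description over cells that share 2 experiments, and Rhpn1, Myof and Plekha2 were picked after their values were seen.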

How the data were processed

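The authors deposited 1 table of TPM values with 170 columns, each matched to a sample by title; of 186 labelled samples, 16 were not analysed here. Polyadenylated RNA of single picked cells was reverse-transcribed from the 3′ end and amplified before paired-end sequencing in 2 runs, per the labels' protocols. The submitters' processing notes list RSEM 1.3.3, STAR 2.7.9a, cutadapt 2.9, bcl2fastq 2.20.0 and the mm10 build. Which gene annotation was used is not stated there. Because TPM is divided by transcript length although the cDNA begins 3′, a gene is compared between cells and never with another gene. The 92 spike-in rows were left out.

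The replicate was the experiment (cells of a stage sharing a date label); its value was the mean of log2(TPM + 1) over its cells. Differences on this scale understate the change of low genes, and p-values measure the spread between collection dates. A gene was tested if, in any group, 25% of cells or more had it at a TPM of at least 1 (11579 genes). All 18 experiments of 7 groups were fitted with limma 3.58.1 in R 4.3.3 (eBayes with trend, 11 residual degrees of freedom, Benjamini-Hochberg adjustment over all tested genes), and every adjusted p is from limma. The DMSO and LY groups of a culture time shared their dates and were fitted without a date term. The shared spread thus treats their same-date experiments as independent, and the effect on the calls was not tested. The script was tested on simulated data. Near-identical columns were those correlating above 0.9; the E4.0 pair and an E3.25 pair of the same title stem were averaged. Coordinates and gene types are from GENCODE on GRCm38. Shares use exact Clopper-Pearson 95% intervals, which cover counting error only. No doublet caller was run, since each sample is 1 picked cell.

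Named genes were the 20 largest rises and up to 10 largest falls past the threshold whose experiments did not overlap, every list member past it, and a set of lineage genes (Ttr was not tested). Some genes that the rule names are not reported here. The members and the 18 lists were chosen with earlier results of these data known. Alternatives covered the pseudocount, the filter, normalization, a covariate, weights, the sequencing run, the groups fitted, and leaving out each experiment.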

Additional observations from a re-analysis of the deposited data

Results flagged for a closer look

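The test of the later step (E3.75 to E4.0) minus the earlier step (E3.25 to E3.75) was passed by 8 genes in limma, and they are listed because their change differed between the steps. On the log2(TPM + 1) scale it was 5.35 ± 0.90 (SE) for Tfpi, 4.69 ± 0.71 for Srgn, 3.78 ± 0.51 for Pth1r, 3.45 ± 0.61 for Exoc3l and 3.44 ± 0.63 for Hs3st1. For Nid2, Foxa2 and Flrt3 it was 3.30 ± 0.55, 3.28 ± 0.51 and 2.56 ± 0.48. The adjusted p ran from 0.00349 for Pth1r to 0.0421 for Flrt3. With n = 2 experiments a stage, all 8 genes were higher in both E4.0 experiments than in any E3.25 or E3.75 experiment.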

How the results depend on the processing

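The count of 174 genes past the threshold became 70 with the log of the mean TPM, 99 when a TPM of 1 was asked in 50% of the cells of a group (fewer genes tested), 16 with cells of run 1 only, and 0 with only the experiments of the contrast or only the 6 fresh experiments (fewer samples; 857 and 1004 genes at an unadjusted p under 0.05). Without 1 experiment it ran from 74 to 210. Under the other alternatives it stayed within 1.5 times, between 131 and 247. The count of 8 genes for the difference between the steps became 4 with the log of the mean TPM, 3 with a pseudocount of 0.1, 23 with a pseudocount of 10, 109 without the filter, 25 with experiments weighted by cells, 0 with only the experiments of the contrast, only the fresh experiments or run 1 only, and 18 without the columns of conflicting label and the second doubted E4.0 cell. Without 1 experiment it ran from 0 to 62. Why the counts changed between settings was not tested. Leaving out columns of conflicting label was chosen after seeing the data. Keeping every column as a cell gave 164 genes. No named call changed direction. No paired analysis was possible because the fresh stages share no date. Depth is unknown, so detection of low genes could not be bounded.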
